A study of Homo sapiens with 24 samples.

Results

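The genes of ketone body metabolism described here are BDH1, BDH2, OXCT1 and ACAT1, 4 of the 22439 genes that the array's probes could be named for. They were chosen by gene, with earlier results of these data known, and their probes were found through transcript accessions. A call of BDH1 beside the share over all probes is therefore not that of a gene picked without regard to these data. Of the array's 58201 non-control probes, 6 belonged to them, with 1 probe each for BDH1, BDH2 and OXCT1 and 3 for ACAT1. RNA came from a pair of human hepatocellular carcinoma (HCC) cell lines, SNU-449 and PLC/PRF/5. Each line was deprived of serum overnight and then either left untreated (control) or kept for 16 h with galunisertib (10 µM), with TGFβ1 (1 ng/mL), or with TGFβ1 and galunisertib together. Galunisertib is an inhibitor of the TGFβ receptor I kinase, through which TGFβ1 signals. The authors state that it also inhibits the type I receptors of activin and nodal. Each of the 8 groups held 3 independent cultures, 1 array each, and all groups shared the serum deprivation. The results therefore describe 2 lines in culture, and in RNA from a whole culture, fewer cells using a gene and less RNA per cell cannot be told apart.

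Ketone bodies are made in liver mitochondria from the acetyl-CoA that fatty acid oxidation yields. ACAT1 joins acetyl-CoA units into acetoacetyl-CoA and also splits acetoacetyl-CoA when ketone bodies are burned, and BDH1 interconverts acetoacetate and 3-hydroxybutyrate. OXCT1, the enzyme that activates acetoacetate with CoA so that it can be burned, is the committed step of ketone body use and is known to be nearly absent from normal hepatocytes, which export ketone bodies rather than use them. BDH2 is a cytosolic relative of BDH1 that has been described as a dehydrogenase of 3-hydroxybutyrate and in siderophore synthesis.

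Levels are given as log2 of a probe's intensity over the 75th percentile of its array, so that 0 is the intensity of a probe brighter than 75% of the spots. Values under a floor at 5.70% of that percentile, a log2 of -4.13, were raised to it and have no order among themselves. The 75th percentile lay between 144.9 and 261.6 intensity units, and the scanner software called 43.9% to 51.6% of an array's probes well above background. Levels of different probes cannot be compared with each other. The array number, 3 per group, limits the precision. The limma p-values rest on the spread between cultures within groups, pooled over all groups of a fit and shared between probes. Arrays with TGFβ1 lay in the other row of each slide than arrays without it, so TGFβ1 treatment and row cannot be told apart.

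The labels of the lines and treatments were checked on genes chosen for that purpose. All 6 hepatocyte markers (ALB, APOA1, APOB, SERPINA1, TTR, AFP) and all 4 epithelial markers (CDH1, KRT8, KRT18, EPCAM) were higher in untreated PLC/PRF/5 than in untreated SNU-449 cells, and of 4 mesenchymal markers 3 (VIM, ZEB1, SPARC) were lower and 1 (FN1) higher. In SNU-449 cells ALB was well above background in 2 of the 3 galunisertib arrays and on none of the other 9, and APOB on none of 12, while SERPINA1, TTR, AFP and 1 of 2 APOA1 probes were well above background on all 12, at lower levels than in PLC/PRF/5. Of the endothelial markers PECAM1 was well above background on 0 of 24 arrays, CDH5 on 13 and the brighter VWF probe on 24. Of the leukocyte markers CD3E was so on 4, the brightest PTPRC probe on 23 and CD14 on 24. The summed level of the leukocyte list was -1.98 to -1.02 on the log2 scale over all arrays, and that of the endothelial list -2.498 to -1.33. Of the 5 TGFβ response genes (SMAD7, SKIL, PMEPA1, LTBP2, BHLHE40), 4 rose with TGFβ1 and 4 fell with galunisertib in SNU-449 cells. In PLC/PRF/5 cells 4 of them were tested, of which 3 rose with TGFβ1, while with galunisertib alone SKIL fell and BHLHE40 rose.

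BDH1 lies on chromosome 3 at chr3:197509783-197573343 of GRCh38.p14, on the minus strand. RefSeq gives the gene more than 1 start, and the 250 bases before each of 2 starts are shown because BDH1 was the member that responded to TGFβ1 and galunisertib. The first stretch, chr3:197573344-197573593, holds 1 match to CAGAC, the core that SMAD proteins bind, and no GC box (GGGCGG). The second, chr3:197555969-197556218, holds no CAGAC and 3 GC boxes. Both strands were searched, the sequences run 5′ to 3′ along the minus strand, and capitals mark the matches to CAGAC or GGGCGG or their reverse complements.
BDH1, the first start: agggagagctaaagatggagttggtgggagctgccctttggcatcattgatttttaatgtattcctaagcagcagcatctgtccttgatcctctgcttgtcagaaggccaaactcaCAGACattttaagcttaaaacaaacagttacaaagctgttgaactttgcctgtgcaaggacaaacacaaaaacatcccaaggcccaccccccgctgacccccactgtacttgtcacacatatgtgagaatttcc
BDH1, the second start: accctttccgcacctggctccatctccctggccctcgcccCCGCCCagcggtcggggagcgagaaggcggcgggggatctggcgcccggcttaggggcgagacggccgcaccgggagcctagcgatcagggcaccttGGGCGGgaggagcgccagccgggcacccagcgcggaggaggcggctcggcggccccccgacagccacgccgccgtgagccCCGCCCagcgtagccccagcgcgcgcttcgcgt
The stretches differ in base composition, with 45.6% and 77.6% G or C. CAGAC occurs in 38% and GGGCGG in 42.5% of the 34943 RefSeq promoter stretches of this length, so a match is common and is a description of the sequence only. The array does not tell which start was used.

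The basal comparison asked how the untreated lines differ. BDH1 and OXCT1 ran in opposite directions: BDH1, the 3-hydroxybutyrate dehydrogenase, was higher in PLC/PRF/5, and OXCT1, the enzyme of ketone body use, was measured in SNU-449 only. BDH2 was likewise measured in SNU-449 only, and the brightest ACAT1 probe did not pass the test. By the brightest probe of each gene, 3 of the 4 members differed at an adjusted p below 0.05, against 65.4% of all 29304 probes tested, so a difference between these lines was the common case. For OXCT1 and BDH2 that count rests on floored values in PLC/PRF/5.

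BDH1 levels were -0.14, -0.21 and 0.20 in the PLC/PRF/5 controls, and -3.96, -4.13 and -3.71 in the SNU-449 controls. The PLC/PRF/5 values all lay far above the SNU-449 values, of which only the last was well above background, and groups that did not overlap were found for 69.9% of the probes. The difference was 3.88 ± 0.20 on the log2 scale (SE; limma, adjusted p = 1.1e-12), a 14.7-fold higher intensity in PLC/PRF/5, and its size depends on the floor because SNU-449 cells lay near it. Values at the floor in SNU-449 can also narrow the spread behind this SE and p. Within slides the BDH1 difference was 3.82, 3.92 and 3.91. Under another background correction (normexp) it was 1.88 and still called.

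OXCT1 levels were 2.99, 3.01 and 2.56 in the SNU-449 controls, well above background on each array, while all 12 PLC/PRF/5 arrays were below background at the floor. OXCT1 was at least 114-fold higher in untreated SNU-449 than in untreated PLC/PRF/5 cells. This bound, like the others below, is set by the weakest signal called well above background on the dim arrays. BDH2 levels were -2.23, -1.56 and -1.73 in the SNU-449 controls, while all 12 PLC/PRF/5 arrays failed to reach background, 11 of them at the floor. BDH2 was at least 4.23-fold higher in untreated SNU-449 cells. The OXCT1 and BDH2 probes entered the test through SNU-449 alone, and floored arrays add no spread, so no p-value is given for them.

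ACAT1, the thiolase at both ends of the pathway, was well above background on all 24 arrays with each of its 3 probes. Its brightest probe read 3.98, 4.21 and 4.25 in the PLC/PRF/5 controls and 4.23, 4.30 and 3.70 in the SNU-449 controls. These groups overlapped, with a difference of 0.07 on the log2 scale (95% interval -0.51 to 0.65; limma, adjusted p = 0.84). The ACAT1 probes did not all give the same result: A_24_P203678 was higher in PLC/PRF/5 by 0.64 ± 0.17 (SE; limma, adjusted p = 0.003), and A_33_P3253975 differed by 0.21 (95% interval -0.21 to 0.63; limma, adjusted p = 0.38). The value of A_24_P203678 rested partly on the third SNU-449 control, at 0.85 against 1.76 and 1.75 in the other two.

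**Figure D1:**
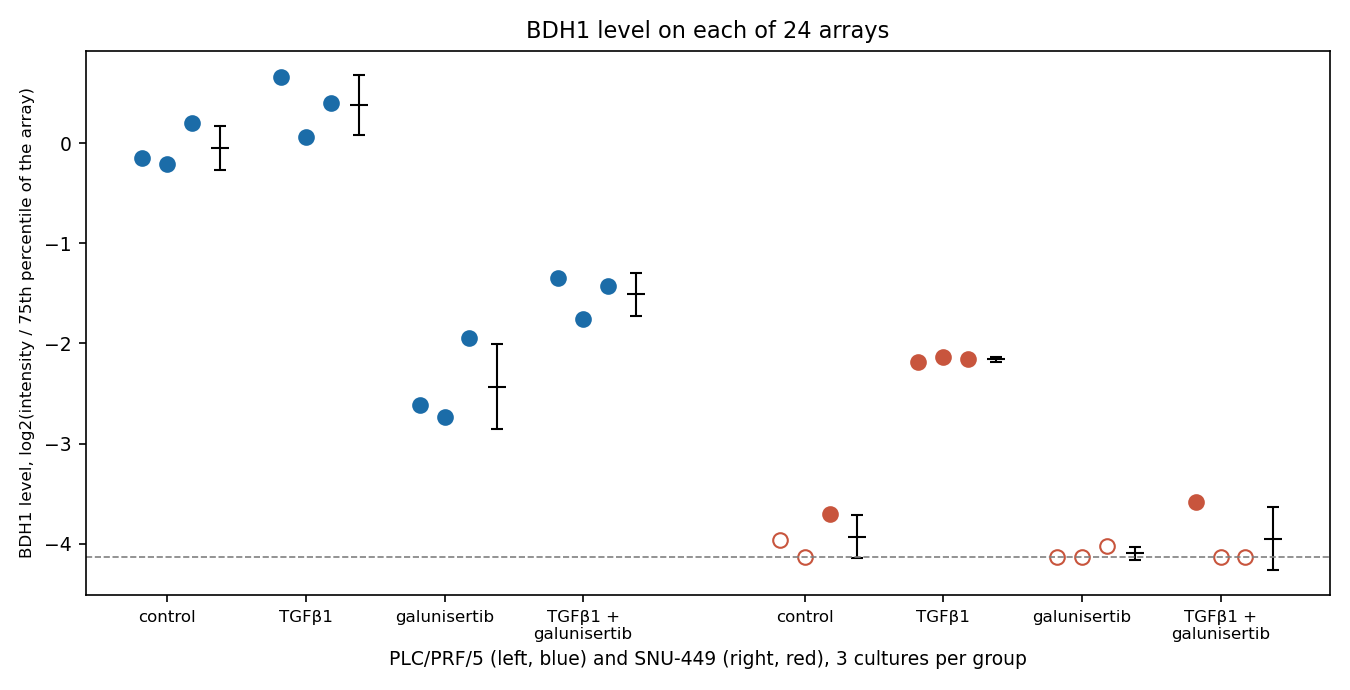
BDH1 level on each array, as log2 of intensity over the 75th percentile of the array (y axis), for the 4 treatments of PLC/PRF/5 (blue) and SNU-449 (red), with 3 cultures per group. Filled points were well above background, open points were not, bars give the mean and SD, and the dashed line is the floor at -4.13. In PLC/PRF/5 the galunisertib arrays lie between -2.73 and -1.95, below the controls, and in SNU-449 the TGFβ1 arrays lie near -2.16 while the other groups are close to the floor.

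Galunisertib alone was compared with control to see what the inhibitor does without added TGFβ1. BDH1 fell in PLC/PRF/5 cells. Its level there was -2.62, -2.73 and -1.95 with galunisertib, against -0.14, -0.21 and 0.20 in the controls, so that every treated culture lay below every control, as for 24% of the probes tested. BDH1 fell by 2.38 on the log2 scale (SE 0.22; limma, adjusted p = 0.0012), a 5.21-fold lower intensity, and by 2.48, 2.52 and 2.15 within slides. Of the 2 members tested in this line, BDH1 was the one called, against 2.91% of the 27044 probes. With any 1 replicate number left out the BDH1 difference was -2.499 to -2.31, at adjusted p between 0.057 and 0.074 (limma), so the call was lost each time. Without replicate 1 no probe of the array was called, although 4317 had an unadjusted p below 0.05. A plain two-sample test on all replicates, without the random variance model of the methods, called 119 probes after adjustment. BDH1 was not among them, but passed the methods' threshold of fold and unadjusted p in that test. With normexp it fell by 1.39.

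Marker genes moved alongside BDH1 in this comparison. Of 6 hepatocyte markers ALB fell by 0.97 (limma, adjusted p = 0.0098) and TTR by 0.69 (limma, adjusted p = 0.0091), and of 4 epithelial markers KRT8 rose by 0.72 and KRT18 by 0.44. The summed level of the hepatocyte list was 8.77 to 9.46 in the controls and 8.85 to 8.91 with galunisertib, on the log2 scale, so the groups overlapped. That of the epithelial list lay at 8.87 to 9.04 in the controls and at 9.38 to 9.45 with galunisertib. The mesenchymal list also lay higher, at 7.66 to 7.82 with galunisertib against 7.27 to 7.50. Each sum adds intensities, so the brightest gene weighs most: over all arrays VIM had a mean level of 8.01 and ZEB1 1.61. None of the 4 mesenchymal genes was called (limma), and 2 had an unadjusted p below 0.05. Their part in the BDH1 result was not tested.

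In SNU-449 cells BDH1 was -4.13, -4.13 and -4.02 with galunisertib and none of these 3 arrays rose clearly over background. Since 2 of the 3 SNU-449 controls were also below background, a fall of BDH1 could hardly be measured in this line, and the difference of -0.16 (95% interval -0.51 to 0.18; limma, adjusted p = 0.59) is given as a value only. None of the 4 members was called by its brightest probe in SNU-449 under galunisertib, where 4.63% of 25778 probes were (limma); 1 of them, OXCT1, had an unadjusted p below 0.05.

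TGFβ1 alone was compared with control in the same way. BDH1 rose in SNU-449 cells, with levels of -2.18, -2.14 and -2.16 against -3.96, -4.13 and -3.71 in the controls. The TGFβ1 arrays were all well above background, and every one lay above every control, as for 36.9% of the probes tested. The BDH1 rise was 1.77 ± 0.16 on the log2 scale (SE; limma, adjusted p = 9.9e-05), a 3.42-fold higher intensity whose size depends on the floor, since 2 of the 3 controls were not well above background. Within slides it was 1.78, 1.99 and 1.55. BDH1 was the 1 member of 4 called, against 8.22% of all probes. In this line it entered the tests through the TGFβ1 group alone, where it was high. Its call therefore cannot be weighed against that share. Values at the floor in the other groups can narrow the spread behind the SE and p. With a floor at 50% of that used the rise was 1.83, and with normexp it was 0.55 and still called. Of the epithelial markers CDH1 fell by 2.00 (limma, adjusted p = 0.0009) and KRT18 by 0.58, with a summed level of 5.73 to 5.82 against 6.17 to 6.44. Of 4 mesenchymal markers 1 was called, FN1, which rose by 0.91 from controls near the floor (mean -3.69, 1 of 3 arrays well above background). The summed level of the mesenchymal list, in which VIM weighs most, was lower, at 8.61 to 8.65 with TGFβ1 against 8.70 to 9.05 in the controls. Their part in the BDH1 rise was not tested.

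In PLC/PRF/5 cells BDH1 was 0.66, 0.07 and 0.41 with TGFβ1, which overlapped the controls. The difference was 0.43 (95% interval -0.06 to 0.92; limma, adjusted p = 0.27). Neither of the 2 members tested was called in this line under TGFβ1 (limma), and 0 of them had an unadjusted p below 0.05, where 10.5% of all probes were called.

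Galunisertib added to TGFβ1 was compared with TGFβ1 alone, and BDH1 fell in both lines. Its level in PLC/PRF/5 was -1.35, -1.76 and -1.42 with both agents, against 0.66, 0.07 and 0.41 with TGFβ1. The groups did not overlap, as for 52.4% of all probes, and BDH1 fell by 1.89 (SE 0.22; limma, adjusted p = 0.00018), a 3.70-fold lower intensity. In SNU-449 its level was -3.59, -4.13 and -4.13 with both agents, of which the first was well above background, against values near -2.16 with TGFβ1. The groups did not overlap, as for 41.8% of all probes, and BDH1 fell by 1.79 (SE 0.16; limma, adjusted p = 5.2e-05), a 3.46-fold lower intensity that the floor limits. Calls across all probes were frequent here, 33.4% in PLC/PRF/5 and 15.1% in SNU-449, and BDH1 was the member called in each. With normexp the fall in SNU-449 was -0.58 and still called. The SE, p and call of that fall carry the limits given above for TGFβ1 alone in SNU-449.

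A pair of further comparisons was chosen after the values were seen. TGFβ1 added to galunisertib was compared with galunisertib alone, and BDH1 in PLC/PRF/5 rose by 0.92 ± 0.22 (SE; limma, adjusted p = 0.039), a 1.89-fold higher intensity, where 6.45% of all probes were called. This BDH1 call was lost with each replicate number left out, with rises of 0.75 to 1.12. In SNU-449 the same BDH1 difference was 0.14 (95% interval -0.20 to 0.49; limma, adjusted p = 0.69), where 1.55% of all probes were called and no member was. Cells with both agents were also compared with control. BDH1 in PLC/PRF/5 fell by 1.46 (SE 0.22; limma, adjusted p = 0.004), where 20.4% of all probes were called. With 1 replicate number left out the BDH1 difference was -1.59 to -1.38, at adjusted p from 0.042 to 0.07 (limma). In SNU-449 the BDH1 difference was -0.02 (95% interval -0.37 to 0.33; limma, adjusted p = 0.98), with 0.621% of all probes called. These comparisons share arrays with those above and are not independent of them.

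**Figure D2:**
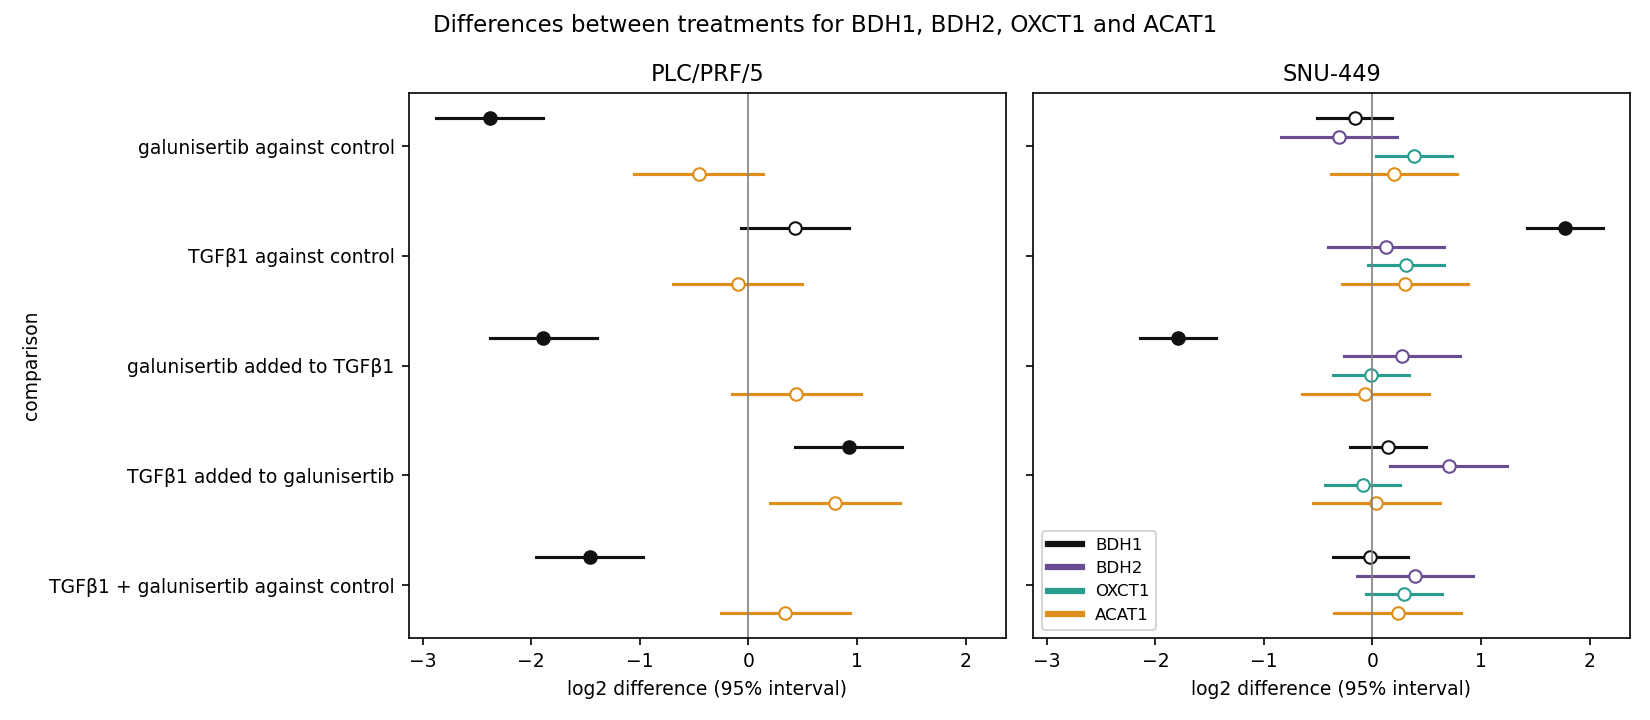
Log2 differences (x axis, points) with their 95% intervals (lines) for BDH1, BDH2, OXCT1 and ACAT1, each by its brightest probe, in 5 comparisons of treatments (y axis) within PLC/PRF/5 and SNU-449. Filled points passed an adjusted p below 0.05 and open points did not, and BDH2 and OXCT1 were not tested in PLC/PRF/5. The filled points all belong to BDH1, at -2.38, -1.89, 0.92 and -1.46 in PLC/PRF/5 and at 1.77 and -1.79 in SNU-449.

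Ordered by mean level, BDH1 was highest in PLC/PRF/5 with TGFβ1 (0.38 ± 0.30, SD, n = 3) and in PLC/PRF/5 controls (-0.05 ± 0.22), whose values overlapped. PLC/PRF/5 with both agents followed (-1.51 ± 0.22), below the controls without overlap. SNU-449 with TGFβ1 (-2.16 ± 0.02) and PLC/PRF/5 with galunisertib (-2.43 ± 0.42) came next and overlapped each other. The SNU-449 controls (-3.93 ± 0.21), SNU-449 with both agents (-3.95 ± 0.31) and SNU-449 with galunisertib (-4.10 ± 0.07) lay lowest, overlapped and were mostly below background.

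The difference between the lines was tested for each agent. The galunisertib effect on BDH1, SNU-449 minus PLC/PRF/5, was 2.22 ± 0.28 on the log2 scale (SE; limma over all 24 arrays, adjusted p = 0.0001), where 4.46% of all probes were called. BDH1 in SNU-449 controls was too near the floor to show a fall like that of PLC/PRF/5, and the part of the floor in this difference was not tested. The TGFβ1 effect on BDH1 was larger in SNU-449 by 1.34 ± 0.28 (SE; limma, adjusted p = 0.0051), where 6.91% of all probes were called. That call was lost under 3 of 10 other settings and with replicate 2 or 3 left out. With normexp the TGFβ1 difference for BDH1 was 0.17 (limma, adjusted p = 0.8). SNU-449 values at the floor can narrow the spread behind the SE and p of each BDH1 line difference. For the other 3 members neither line difference was called by the brightest probe, although with normexp the TGFβ1 difference of OXCT1 was called, at 0.66. OXCT1 and BDH2 reached background on no PLC/PRF/5 array, so their line differences cannot tell whether the lines respond alike.

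OXCT1, BDH2 and ACAT1 were then followed across the treatments. OXCT1 in SNU-449 was 3.24, 3.08 and 3.16 with TGFβ1, 3.47, 2.96 and 3.28 with galunisertib, and 3.06, 3.11 and 3.27 with both agents. All of these arrays were bright, and their means lay above the control mean of 2.85. The difference from control was 0.38 for galunisertib (95% interval 0.03 to 0.73; limma, adjusted p = 0.19) and 0.31 for TGFβ1 (95% interval -0.04 to 0.66; limma, adjusted p = 0.29), so neither was called. Galunisertib added to TGFβ1 moved OXCT1 by -0.01 (95% interval -0.36 to 0.33; limma, adjusted p = 0.97). No treatment of PLC/PRF/5 brought OXCT1 above background on any array.

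BDH2 in SNU-449 was -1.72, -1.57 and -1.85 with TGFβ1, -2.54, -1.62 and -2.27 with galunisertib, and -1.66, -1.24 and -1.44 with both agents. The galunisertib cultures spread most, and the groups overlapped. The BDH2 difference from control was -0.31 for galunisertib (95% interval -0.84 to 0.23; limma, adjusted p = 0.50) and 0.13 for TGFβ1 (95% interval -0.41 to 0.66; limma, adjusted p = 0.83). BDH2 was 0.70 higher with both agents than with galunisertib alone (95% interval 0.17 to 1.24; limma, adjusted p = 0.21), which did not pass. The BDH2, OXCT1 and brightest ACAT1 probes lie within the outermost 6 columns of the array, and the part of that position in their spread was not tested.

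ACAT1 by its brightest probe read 4.04, 4.12 and 2.91 in PLC/PRF/5 with galunisertib, where the third culture stood apart from the others. The other ACAT1 probes read 1.47 and 1.94 on that same array, of which the first was the lowest of its group and the second the highest. Across the treatments the means of the brightest ACAT1 probe ran from 3.69 to 4.49 in PLC/PRF/5 and from 4.08 to 4.38 in SNU-449. Its differences in the comparisons with control and in galunisertib added to TGFβ1 ran from -0.46 to 0.44, none of them called. The largest ACAT1 difference within a line was that of TGFβ1 added to galunisertib in PLC/PRF/5, at 0.80 (95% interval 0.20 to 1.39; limma, adjusted p = 0.095), against -0.03 and 0.14 by the other ACAT1 probes. With normexp it was 1.07 and called. The one ACAT1 call within a line was that of A_24_P203678, which was lower by -0.42 in PLC/PRF/5 with both agents than in control (SE 0.12; limma, adjusted p = 0.033), while the brightest probe differed there by 0.34 and A_33_P3253975 by 0.02.

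**Figure D3:**
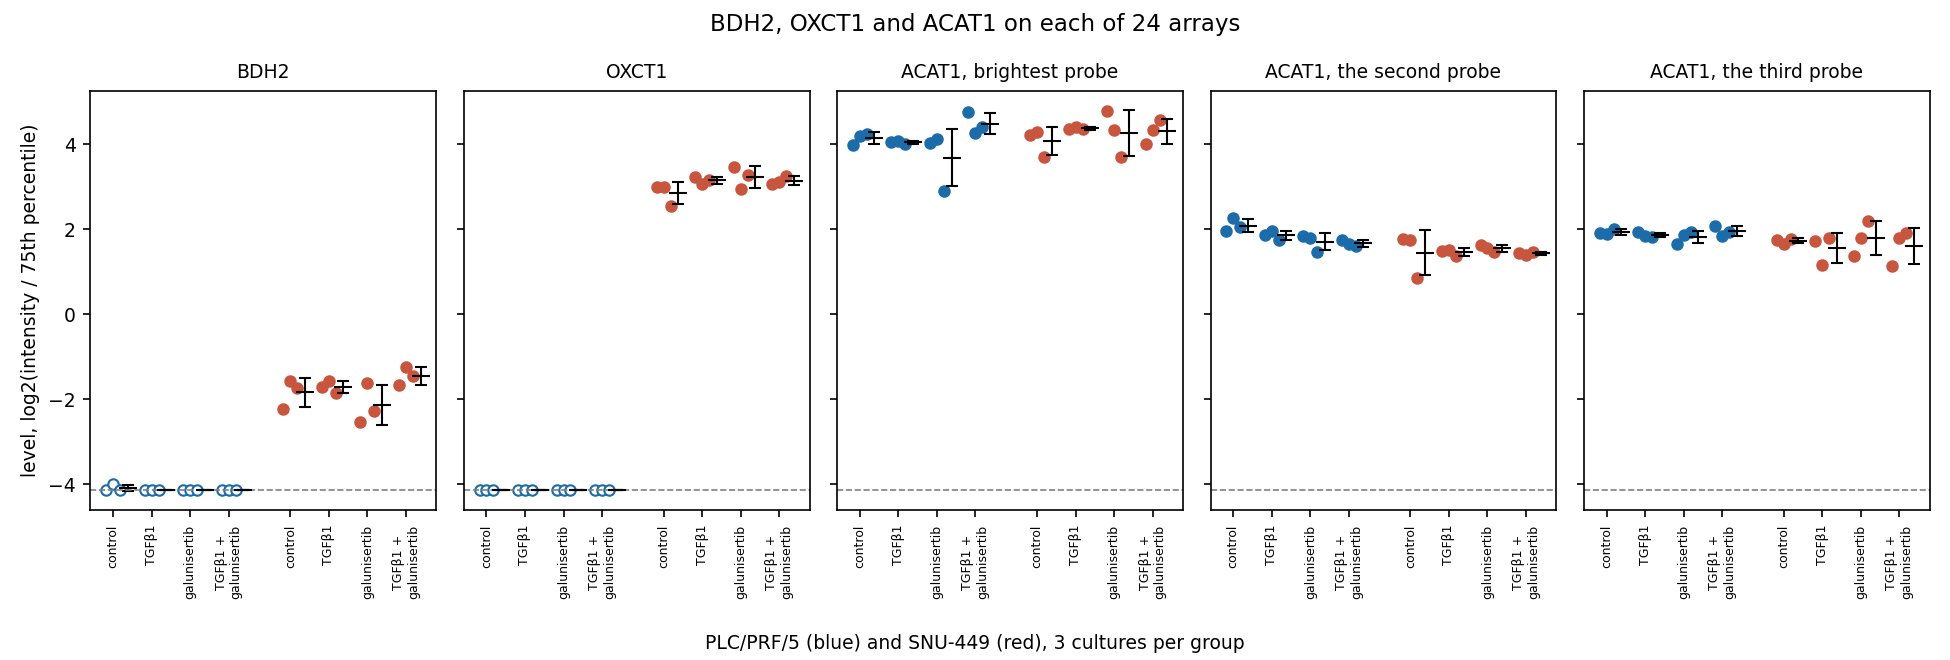
Levels of BDH2, OXCT1 and the 3 ACAT1 probes on each array, as log2 of intensity over the 75th percentile (y axis), for the 4 treatments of PLC/PRF/5 (blue) and SNU-449 (red). Filled points were well above background, open points were not, bars give the mean and SD of 3 cultures, and the dashed line is the floor. OXCT1 lies at the floor in PLC/PRF/5, as does BDH2 on 11 of 12 arrays, and both lie above it in SNU-449, while all 3 ACAT1 probes are well above background in both lines.

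The other enzymes reported here were HMGCLL1, OXCT2 and AACS. HMGCLL1, a lyase outside mitochondria, was at least 5.43-fold higher in untreated SNU-449 cells, and OXCT2, a relative of OXCT1 known from testis, was at least 5.69-fold higher in untreated PLC/PRF/5 cells. OXCT2 was thus measured where OXCT1 was not, and the reverse, with OXCT2 below background on all SNU-449 arrays. AACS, which activates acetoacetate in the cytosol for lipid synthesis, was higher in PLC/PRF/5 by 0.43 (limma, adjusted p = 0.0052). It was called under neither agent alone, nor with galunisertib added to TGFβ1. When TGFβ1 was added to galunisertib in PLC/PRF/5, OXCT2 and AACS were tested. Of these 2 genes 1 was called lower (limma), where 6.45% of all probes were called.

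Among the carriers and receptors, monocarboxylate transporters of the SLC16A family carry ketone bodies and lactate across membranes. SLC16A6, a transporter tied to ketone body export from liver, fell with TGFβ1 by 0.93 in PLC/PRF/5 (limma, adjusted p = 0.014) and by 1.18 in SNU-449 (limma, adjusted p = 0.0041). It rose when galunisertib was added to TGFβ1, by 1.42 and 1.58 (limma, adjusted p = 0.00048 and 0.00042). In the same 4 comparisons BDH1 differed by 0.43 and 1.77 and then by -1.89 and -1.79, so that SLC16A6 had the opposite sign to BDH1 in each. SLC16A7 was measured in SNU-449 only, at least 11.9-fold above PLC/PRF/5 controls, where it fell with TGFβ1 by 0.59 and rose with galunisertib by 0.42 and on top of TGFβ1 by 0.80. SLC16A1, the broadly used transporter, was higher in untreated PLC/PRF/5 by 2.09, and fell there with galunisertib by 0.61 (limma, adjusted p = 0.026) and by 0.39 on top of TGFβ1, while SLC16A3 rose by 0.60 and 0.58. Of this list 4 genes were tested in PLC/PRF/5 and 5 in SNU-449, and a median of 0.32 with galunisertib in PLC/PRF/5 stood beside 0.02 over all probes.

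The fatty acid oxidation list, which supplies the acetyl-CoA, had 21 of 22 genes tested in each line. Galunisertib alone changed 1 of them in each line, CPT2 by 0.40 in SNU-449 and ACADVL by 0.36 in PLC/PRF/5, and TGFβ1 alone changed 0 in SNU-449 (limma; 2 had an unadjusted p below 0.05) and 3 in PLC/PRF/5. The shares called over all probes were 4.63% and 2.91% for galunisertib and 8.22% and 10.5% for TGFβ1, in SNU-449 and PLC/PRF/5. CPT1A, which admits long-chain fatty acids to mitochondria, rose with TGFβ1 in PLC/PRF/5 by 0.71 (limma, adjusted p = 0.003) and fell when galunisertib was added by 1.10 (limma, adjusted p = 7.8e-05). SLC25A20, the carnitine carrier, rose by 0.43 and fell by 0.46 in the same comparisons. With galunisertib added to TGFβ1 in PLC/PRF/5, 7 genes of the list rose and 3 fell, the largest rise being 0.77 for ACADL, with a list median of 0.15 against 0.02 over all probes. In SNU-449, 3 rose and 1 fell, with a median of 0.06 against 0.01. Over all probes 33.4% and 15.1% were called in these comparisons.

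Of the cytosolic list, HMGCS1, an enzyme of the mevalonate route, rose in PLC/PRF/5 by 0.49 when galunisertib was added to TGFβ1 (limma, adjusted p = 0.0049). ACAT2, the cytosolic thiolase, fell in SNU-449 by 2.15 in that comparison (SE 0.41; limma, adjusted p = 0.0066), with levels between 2.49 and 3.74 against 5.21 to 5.87. Its probe lies in column 164, the last of the array's 164 columns, and the part of that position was not tested.

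Of the regulators, FOXA2, a liver transcription factor, rose in SNU-449 with galunisertib by 1.02 (limma, adjusted p = 0.0013), fell with TGFβ1 by 0.80 (limma, adjusted p = 0.0022), and rose by 1.27 when galunisertib was added to TGFβ1. CREB3L3, a liver factor of fasting, was below background on all SNU-449 arrays and at least 258-fold higher in untreated PLC/PRF/5 cells. It fell there with galunisertib by 0.61 (limma, adjusted p = 0.034) and by 1.00 on top of TGFβ1, where PPARA and RXRA, nuclear receptors of fatty acid oxidation genes, fell by 0.38 and 0.50. In the basal comparison PPARA was 1.78 higher in PLC/PRF/5. FGF21 and PPARGC1A lay at the floor on every array.

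**Figure D4:**
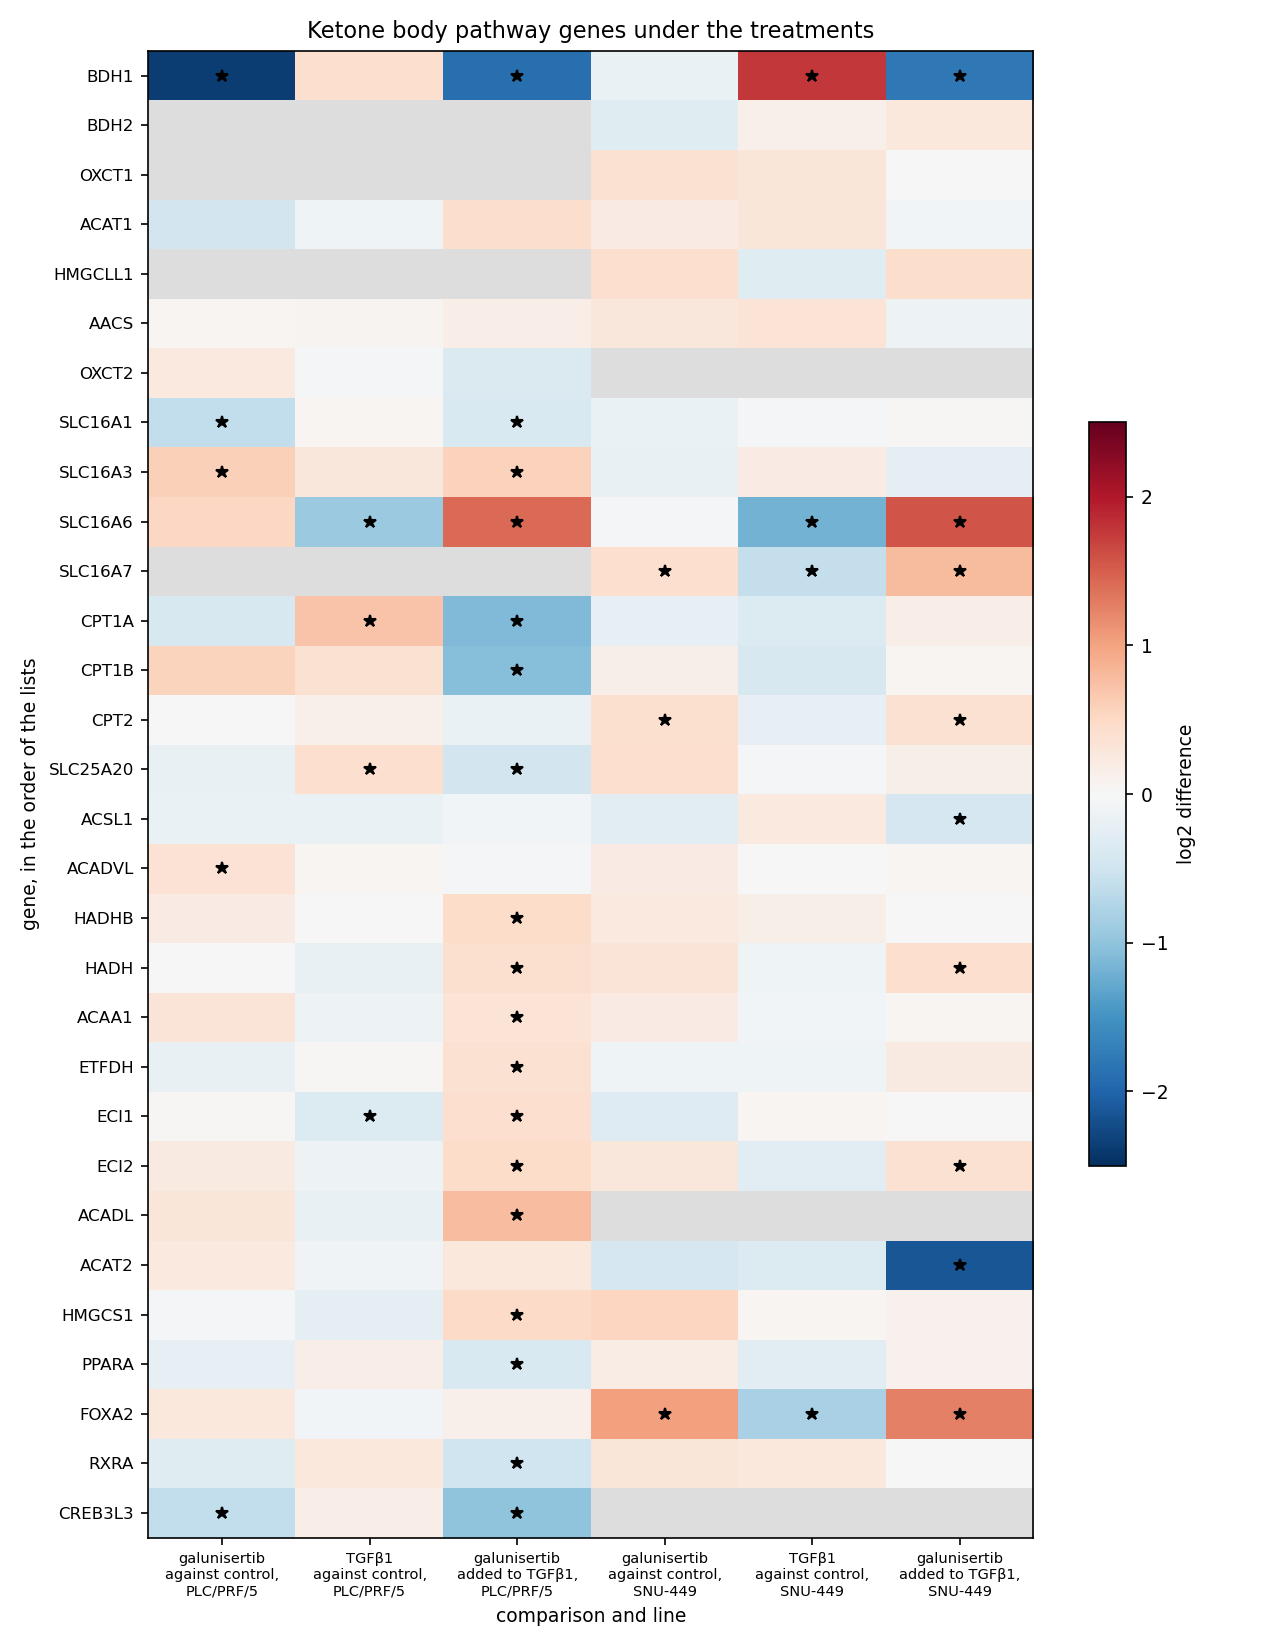
Log2 differences (colour, limited to 2.5 in either direction) for 30 genes (y axis), namely the members, the other tested enzymes, SLC16A1 and those genes of the lists called in at least 1 column, in the 3 main treatment comparisons of each line (x axis). Stars mark an adjusted p below 0.05 and grey cells were not tested. BDH1 carries a star in 4 of the 6 columns, and SLC16A6 shows the opposite colour to BDH1 in the TGFβ1 columns and where galunisertib was added to TGFβ1.

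Genes whose pattern was most like that of each member were ranked by Pearson correlation over the 24 arrays after the mean of each line was subtracted, among 15255 named probes well above background on all arrays. For BDH1 these were KLHL24 (r = 0.89), NDRG1 (0.89) and NUPR1 (0.88), with r of 0.86, 0.82 and 0.93 within SNU-449 and 0.91, 0.92 and 0.87 within PLC/PRF/5. For OXCT1 they were TERF2, RNF130 and EP300 (r = 0.86, 0.86 and 0.84), which rests on SNU-449 because OXCT1 was at the floor on every PLC/PRF/5 array. For BDH2 they were KRTAP12-2, LINC03021 and ZRANB1 (r = 0.80, 0.78 and 0.75), with 0.86, 0.81 and 0.83 within SNU-449. Within PLC/PRF/5, where BDH2 reached background on no array, r was 0.48, 0.03 and 0.12. For ACAT1 they were MAPRE1, SLC36A4 and RNF139 (r = 0.84, 0.83 and 0.81), with 0.52 to 0.59 within SNU-449 and 0.93 to 0.96 within PLC/PRF/5. The arrays share treatments and slides, so the correlations are descriptions and carry no p.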

How the data were processed

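RNA of 24 cultures was measured on 1-colour (Cy3) Agilent SurePrint G3 arrays. The authors deposited the output of Agilent Feature Extraction 10.7.3.1 (per the labels), whose processed signal is a linear, background-subtracted intensity without normalization between arrays. They also deposited a table of 30913 probes of log2 values processed in GeneSpring. Differences between arrays in that table correlated with those used here at 0.999 across probes with a slope of 1.00, each probe being centred on its median, and the table served as an alternative only.

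Control spots and outlier spots (111 to 216 per array) were left out, and 0 spots were saturated. Intensities were divided by the 75th percentile of their array and floored at 5.70% of it, which is each array's weakest signal well above background taken as a median over arrays, before log2. The design fixed beforehand named no floor. A probe entered a test when 1 group or more had it well above background on all of its arrays. Accessions were matched to the RefSeq gene table, which named 31104 of 58201 probes. Positions and sequences come from RefSeq on GRCh38.p14, as the array's own build was not given in the sources used here. A gene was led by its brightest probe. ACAT1 was matched by accession, since SOAT1 has carried the same symbol.

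Comparisons within a line used limma 3.58.1 in R 4.3.3 over the 12 arrays of that line, and comparisons between lines all 24, with Benjamini-Hochberg adjustment over all probes tested and a call at 0.05. Intervals are 95%. The methods name a two-sample univariate test with a random variance model; limma also shares the spread between genes, and a plain t-test, called the methods' t-test here although it has no random variance model, was an alternative. The steps were tested on simulated data. Tables were made in Python 3.11.15. The replicate number is also the slide. Same-numbered samples deviated together (every correlation of deviations over 0.1) in 3 comparisons. The correlations were 0.14 to 0.23 for the TGFβ1 response of SNU-449, 0.16 to 0.29 for that of PLC/PRF/5, and 0.11 to 0.26 where SNU-449 cells with TGFβ1 received galunisertib. Culture and slide cannot be told apart in this.

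The members and gene lists were chosen with earlier results of these data known. The text names every member probe, HMGCLL1, OXCT2, AACS and SLC16A1, up to 4 of the largest called changes of each other pathway list, the TGFβ response and marker genes, and the 3 genes most like each member. Some genes of the lists are not reported here and were left out of their counts. FGF21 and PPARGC1A, and PPARA in the basal comparison, were named after their values were seen. The normexp correction used the median spot and local background signals, as no mean signal was in the files used here. Alternatives covered scaling, background, the floor, the filter, gene summary, block, arrays in the fit, the test and left-out replicates.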

Additional observations from a re-analysis of the deposited data

Results flagged for a closer look

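The effect of galunisertib on BDH1 differed between the lines by 2.22 on the log2 scale (SNU-449 minus PLC/PRF/5; limma, adjusted p = 0.0001), since BDH1 fell by 2.38 in PLC/PRF/5 and differed by -0.16 in SNU-449, where the controls lay near the floor. The effect of TGFβ1 on BDH1 differed by 1.34 (limma, adjusted p = 0.0051), with 1.77 in SNU-449 and 0.43 in PLC/PRF/5. Both were marked because a test of the difference itself passed. SNU-449 cells could hardly show a fall, so the first does not tell whether the lines respond differently to galunisertib. The second was called under 7 of 10 other settings and was 0.17 with normexp (limma, adjusted p = 0.8).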

How the results depend on the processing

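BDH1 kept its direction and its call in every setting that tested it for TGFβ1 in SNU-449 cells (0.55 to 1.96). The same held for galunisertib added to TGFβ1 in both lines (-1.91 to -0.58 in SNU-449, -2.06 to -1.39 in PLC/PRF/5). It also held for the untreated lines (1.88 to 4.01) and for the line difference of the galunisertib effect (1.44 to 2.29). The low ends come from normexp. A stricter filter dropped any probe that was dim on an array of the fit. It removed BDH1 from each fit that held SNU-449 arrays, so those BDH1 results were not tested under it. The replicate block changed no BDH1 call, for example 1.77 at an adjusted p of 0.00061 (limma) for TGFβ1 in SNU-449 with the pairing. The methods' t-test left the fall with galunisertib in PLC/PRF/5 at -2.38 but not called (adjusted p = 0.073), as was the fall with both agents (-1.46). At the methods' threshold of fold and unadjusted p, BDH1 passed that t-test for galunisertib in PLC/PRF/5, for TGFβ1 in SNU-449 and for galunisertib added to TGFβ1 in both lines. Members gained a call in these cases, none of them called otherwise: with normexp, ACAT1 in PLC/PRF/5 with TGFβ1 added to galunisertib (1.07) and both agents (0.75), A_33_P3253975 in the same (0.39, 0.32), and OXCT1 for the line difference of the TGFβ1 effect (0.66); with all 24 arrays in the fit, OXCT1 with galunisertib (0.38) and BDH2 with TGFβ1 added to galunisertib (0.70) in SNU-449; with only the groups compared, ACAT1 with galunisertib added in PLC/PRF/5 (0.44); with the percentile over detected probes, A_24_P203678 there (-0.36); and with the t-test, A_33_P3253975 between the untreated lines (0.21). The cause of a lost or gained call was not tested. Probes with low signal, above all BDH1 in SNU-449 and OXCT1 and BDH2 in PLC/PRF/5, are limited by background.

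The line difference of the TGFβ1 effect on BDH1 was not called with median scaling (1.41), no scaling (1.27) or normexp (0.17). BDH1 with TGFβ1 added to galunisertib in PLC/PRF/5 was not called with median scaling (1.03), no scaling (1.12), normexp (0.39), the authors' normalized values (0.94), no filter on dim probes, only the groups compared in the fit, or the t-test (0.92 in each). With 1 replicate number left out BDH1 ranged from -2.499 to -2.31 for galunisertib in PLC/PRF/5, 0.75 to 1.12 for TGFβ1 added to galunisertib in PLC/PRF/5 and -0.057 to 0.27 in SNU-449, -1.59 to -1.38 for both agents in PLC/PRF/5 and -0.21 to 0.19 in SNU-449, and 1.16 to 1.53 for the line difference of the TGFβ1 effect, which was not called without replicate 2 (1.16) or 3 (1.35). Uncalled BDH1 values in SNU-449 changed sign with normexp for galunisertib (0.053) and TGFβ1 added to galunisertib (-0.082), and without scaling for both agents (0.046).

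All other changes of sign concerned differences that had not been called. With median scaling these were SLC16A1 in SNU-449 with TGFβ1 (0.072) and galunisertib added to it (-0.15), OXCT2 with TGFβ1 in PLC/PRF/5 (0.0015), ACAT1 (-0.30) and its probe A_33_P3253975 (-0.16) between the untreated lines, that probe with galunisertib added to TGFβ1 in SNU-449 (-0.12), ACAT1 with TGFβ1 added to galunisertib in SNU-449 (-0.090), and A_24_P203678 likewise in PLC/PRF/5 (0.082). Without scaling they were A_24_P203678 (-0.020) and A_33_P3253975 (-0.054) with galunisertib in SNU-449, SLC16A1 in SNU-449 with TGFβ1 (0.10) and galunisertib added (-0.14), A_33_P3253975 there (-0.12), ACAT1 (0.15), A_24_P203678 (0.027), A_33_P3253975 (0.18) and OXCT2 (0.22) with TGFβ1 in PLC/PRF/5, ACAT1 between the untreated lines (-0.042), and A_24_P203678 with TGFβ1 added to galunisertib in PLC/PRF/5 (0.16). With the 75th percentile taken only over probes that every array detected, or with quantile normalization, they were AACS in PLC/PRF/5 with galunisertib (-0.024, -0.019) and galunisertib added to TGFβ1 (-0.014, -0.039), A_24_P203678 with TGFβ1 in SNU-449 (-0.044, -0.036), OXCT1 with galunisertib added in SNU-449 (0.024, 0.031), and A_33_P3253975 in PLC/PRF/5 with galunisertib added (-0.085, -0.032) and with both agents against control (-0.12, -0.079); only the first also turned A_33_P3253975 with galunisertib (-0.00042) and A_24_P203678 with galunisertib added (0.013) in SNU-449, and only the second ACAT1 in the latter (0.0079). With normexp they were ACAT1 (-0.41) and A_33_P3253975 (-0.16) with galunisertib, A_24_P203678 (-0.10) and A_33_P3253975 (0.064) with TGFβ1, BDH2 (-0.070) and A_33_P3253975 (-0.073) with galunisertib added, A_33_P3253975 with TGFβ1 added to galunisertib (0.15) and OXCT1 with both agents (-0.043), all in SNU-449, ACAT1 (0.29) and A_33_P3253975 (0.19) with TGFβ1 in PLC/PRF/5, and both for the line difference of the galunisertib effect (-0.094, -0.092). With the mean of a gene's probes they were AACS in PLC/PRF/5 with galunisertib (-0.22) and TGFβ1 (-0.17), and ACAT1 with TGFβ1 added to galunisertib in SNU-449 (-0.090) and both agents in PLC/PRF/5 (-0.019).

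With 1 replicate number left out, the ranges that crossed 0 in SNU-449 were, with TGFβ1, BDH2 (-0.066 to 0.25) and A_24_P203678 (-0.24 to 0.14), with galunisertib A_24_P203678 (-0.16 to 0.24) and A_33_P3253975 (-0.11 to 0.29), with galunisertib added to TGFβ1 OXCT1 (-0.077 to 0.070), ACAT1 (-0.21 to 0.076), A_24_P203678 (-0.092 to 0.021), A_33_P3253975 (-0.24 to 0.38) and SLC16A1 (-0.047 to 0.079), with TGFβ1 added to galunisertib OXCT1 (-0.21 to 0.069) and ACAT1 (-0.39 to 0.45), and with both agents ACAT1 (-0.089 to 0.47), A_24_P203678 (-0.34 to 0.15) and A_33_P3253975 (-0.25 to 0.13). In PLC/PRF/5 they were, with TGFβ1, OXCT2 (-0.10 to 0.011), SLC16A1 (-0.047 to 0.11) and AACS (-0.043 to 0.11), with TGFβ1 added to galunisertib A_24_P203678 (-0.11 to 0.023) and A_33_P3253975 (-0.010 to 0.21), and with both agents A_33_P3253975 (-0.060 to 0.068). Between the untreated lines ACAT1 ranged from -0.17 to 0.23, and the line difference of the TGFβ1 effect from -0.047 to 0.43 for A_24_P203678 and from -0.26 to 0.069 for A_33_P3253975.

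The number of probes called also moved, partly because some settings test fewer probes. The gene mean, which tests genes, is left out here. Against 1193 for galunisertib in SNU-449 it ran from 42 (t-test) to 3112 (all 24 arrays in the fit), against 787 in PLC/PRF/5 from 0 (limma, without replicate 1; 4317 at an unadjusted p below 0.05) to 1115, against 2118 for TGFβ1 in SNU-449 from 566 to 3704, and against 2848 in PLC/PRF/5 from 443 to 3077. It ran for galunisertib added to TGFβ1 from 1170 to 5929 against 3884 in SNU-449 and from 1374 to 9571 against 9040 in PLC/PRF/5, and between the untreated lines from 12857 to 19752 against 19177. For the line differences it ran from 280 to 1462 against 1307 for galunisertib and from 560 to 2230 against 2025 for TGFβ1. For both agents against control it ran from 8 to 1010 against 160 in SNU-449 and from 73 to 6472 against 5529 in PLC/PRF/5. For TGFβ1 added to galunisertib it reached 1521 against 400 in SNU-449 and 2594 against 1743 in PLC/PRF/5, where the t-test called 0 in each line (2776 and 4989 at an unadjusted p below 0.05). The replicate block gave 521 for galunisertib in PLC/PRF/5 and 108 for both agents in SNU-449. At the methods' threshold of fold and p the t-test passed 36 probes for galunisertib and 146 for TGFβ1 in PLC/PRF/5, and 103 and 356 in SNU-449.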
